A study of Rattus norvegicus with 8 samples.

Results

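The 42 genes described here encode enzymes that add or remove methyl and acetyl groups on histones. They were chosen by name, as 18 methyltransferases and their core complex subunits, 6 demethylases, 5 acetyltransferases and 13 deacetylases, and a probe belonged to a gene where the array annotation carried that gene name. The array held 49 such probes for 38 of the 42 genes. Of these, 37 genes entered the test, among 17226 features in all. Suz12, Kat2b, Hdac4 and Hdac6 had no probe under these names and were not analysed here, except that Kat2b is described further on from probes with its older name. Hdac2 had 1 probe, which was not well above background on any of the 8 arrays, so no level is given for it.

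The arrays hold liver RNA of 8 male Fisher 344 rats, 1 rat to an array, all aged 18 weeks. Control livers came from 4 rats, and what these rats were given was not stated in the sources used here. The other 4 rats received furan, a liver carcinogen of rodents, by gavage for 90 days, at a dose of 8 mg/kg body weight given 5 times weekly. All rats were killed 24 hours after the last treatment, and the liver was frozen. The title of the series names furan-induced epigenetic changes, and these enzymes write and erase such marks.

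Histone tails carry methyl groups on lysines and arginines and acetyl groups on lysines. Methyltransferases use S-adenosylmethionine as the donor, and demethylases of the Jumonji family need iron and oxoglutarate. Acetyltransferases use acetyl-CoA and in general accompany active genes, while classical deacetylases are zinc enzymes that work in corepressor complexes and sirtuins consume NAD. In liver these enzymes are known for roles in hepatocyte identity, metabolism and regeneration. Many of them also modify proteins other than histones, and an mRNA level says nothing direct about the mark itself.

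Of the 37 tested enzymes 32 were not called different between the groups. Setd7, Smyd2 and Prmt5, which are methyltransferases, and the deacetylase Hdac3 rose after furan, and the NAD-dependent deacetylase Sirt2 fell. These 5 calls out of 37 genes (13.5%) compare with 35.5% of all features called in either direction (limma's moderated test, Benjamini-Hochberg adjusted over all 17226 features, adjusted p below 0.05). Called higher were 4 members, against 18.0% of all features, and called lower was 1 member, against 17.5%. The change was under 0.5 on the log2 scale in 33 of the 37 members, against 64.3% of all features, and at least 2-fold in 1 member, Setd7, against 10.5%. Setd7 passed the filter on dim probes only through the furan group and was not called with normexp background correction, so its call and its fold are held with that limit. Levels of the 4 furan livers lay wholly above or below those of the 4 controls for 9 members (24.3%), against 37.5% of all features. The median log2 change was 0.16 over the members and -0.03 over all features. The members' median standard error of 0.14 was close to the 0.16 of all features, while their median absolute log2 change was 0.22 against 0.36. These shares are descriptions of a chosen list, and no test of the list was made.

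**Figure D1:**
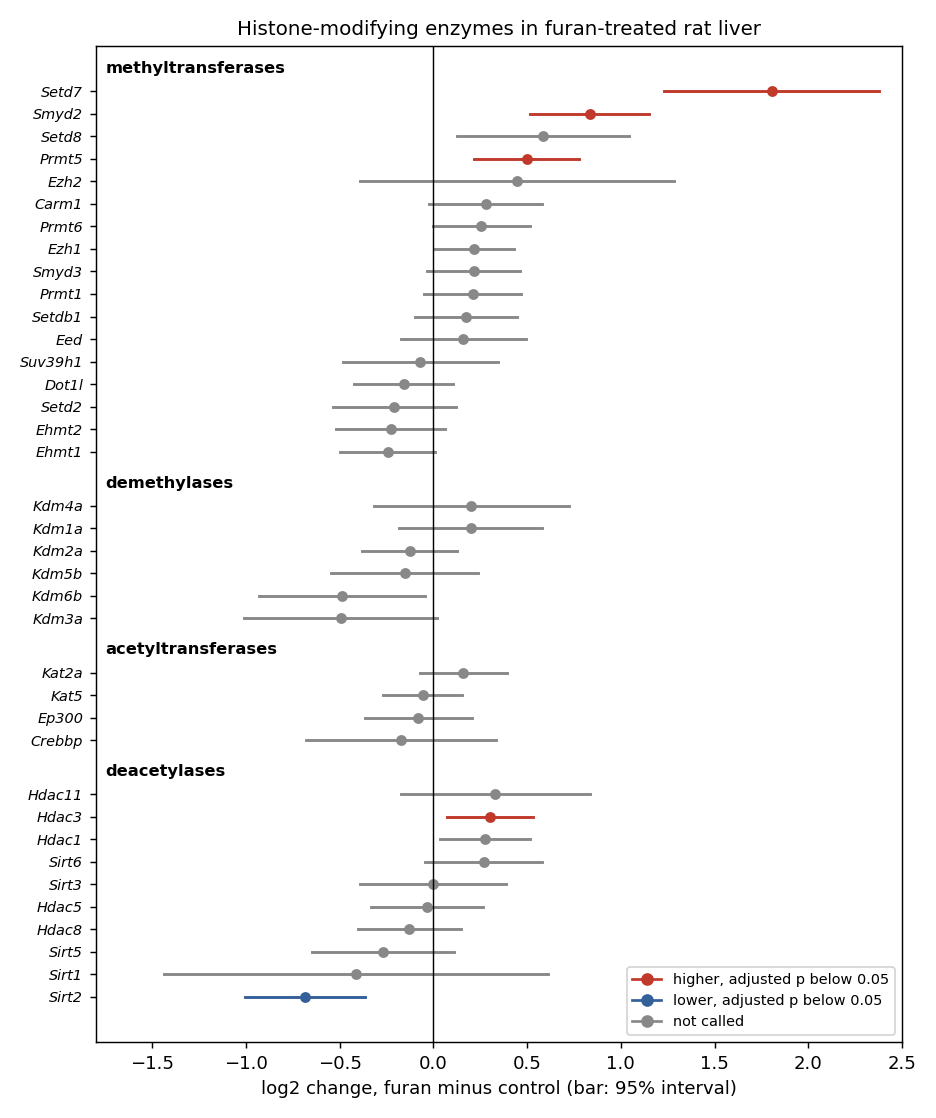
Log2 change of each tested member (x axis, furan minus control, n = 4 each) with its 95% interval from limma, grouped by class. Setd7, Smyd2, Prmt5 and Hdac3 lie to the right in red, Sirt2 to the left in blue, and the 32 grey members were not called.

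Every level below is the log2 processed signal minus the log2 75th percentile of the non-control spots of its array, so that percentile is 0. It ranks arrays for 1 probe, and levels of different probes are not compared as amounts of RNA. The choice of the brightest probe and the medians, sums and bins over genes rest on signal only. The 75th percentile lay between 827 and 1057 intensity units on the control arrays and between 1256 and 1596 on the furan arrays, and no spot was saturated. Arrays 1 and 2 of each group lay on slide 1 and arrays 3 and 4 on slide 2. The marker counts below stand beside 18.0% of all features called higher and 17.5% called lower. Hepatocyte markers had array medians from 5.55 to 5.78 in controls and from 4.44 to 4.91 after furan; of 15 tested, 10 were called lower and 1 higher, and their summed linear signal ran from 1632 to 1924 and from 1175 to 1459 times the 75th percentile. Of 25 tested proliferation genes 24 were called higher and none lower, with array medians from -4.65 to -4.25 in controls and from -3.02 to -2.06 after furan and sums from 1.88 to 2.70 and from 5.42 to 10.02 (Cenpf had a probe but was not tested). Biliary markers were uneven within groups. Their array medians were -0.39 in control 2, 0.18 in furan 1 and from -3.76 to -1.63 in the other livers. Of the 13 tested, 4 were called higher and 1 lower (38.5%, near the 35.5% of all features), with a median log2 change of 0.90. Their summed linear signal ran from 3.64 to 10.04 in controls and from 5.15 to 16.4 after furan. Of 12 macrophage, 11 endothelial and 11 stellate cell and matrix markers tested none was called at an adjusted p below 0.05 (with an unadjusted p below 0.05 there were 1, 1 and 0), and of 7 lymphocyte markers 1 was lower. In whole liver a change in the number of cells of a type and a change in RNA per cell cannot be told apart, and the part that these shifts in cell makeup and cell division have in the results below was not tested.

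Probes are printed here for Setd7, Smyd2, Prmt5 and Sirt2, which were called, and for Ezh2, which was not. Each of these 5 genes rests on a single 60-base stretch. Hdac3, which was also called, rests on a single probe too, and that probe is not printed. Positions come from the annotation that ships with the array (rn4 build), and the Smyd2 span is wider than its probe.
Setd7 probe, chr2:140420101-140420160 (- strand): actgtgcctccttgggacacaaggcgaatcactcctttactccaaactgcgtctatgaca
Smyd2 probe, chr13:106165868-106167676 (- strand): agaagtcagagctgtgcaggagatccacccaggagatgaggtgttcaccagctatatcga
Prmt5 probe, chr15:32577036-32577095 (- strand): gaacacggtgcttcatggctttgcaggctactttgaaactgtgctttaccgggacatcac
Sirt2 probe, chr1:83890733-83890792 (+ strand): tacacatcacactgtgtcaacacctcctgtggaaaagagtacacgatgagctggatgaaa
Ezh2 probe, chr4:75713707-75713766 (- strand): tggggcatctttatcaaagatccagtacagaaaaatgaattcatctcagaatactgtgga

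Among the lysine methyltransferases, Smyd2 rose on a well measured probe, and Setd7 was called higher on a dim one. Setd7, which adds a single methyl group to histone H3 and to several transcription factors, gave the 4 control livers, in the order 1 to 4, levels of -6.34, -6.87, -6.29 and -7.15, and the furan livers, in the same order, -4.31, -5.08, -5.14 and -4.90. The lowest furan liver was above the highest control. The probe is a single dim spot, well above background on 2 of 4 control arrays and on all 4 furan arrays, so Setd7 passed the filter only through the group in which it was higher. On the processed signal its log2 change was 1.80 ± 0.25 (SE, adjusted p = 0.00167), at 1.91 on slide 1 and 1.70 on slide 2. With normexp background correction it was 0.12 and was not called (adjusted p = 0.442), so the size of the change depends on how the background was treated. The alternatives spanned 0.12 to 1.93 in log2 change and 0.00105 to 0.442 in adjusted p, and the call was also lost on slide 1 alone.

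Smyd2, a SET and MYND domain enzyme that methylates histone H3 and p53, was measured well above background on every array. Its levels were -1.98, -1.59, -1.66 and -1.65 in the controls and -0.63, -1.09, -1.005 and -0.82 after furan. All furan livers stood above all controls, and control 1 was the lowest. The log2 change of 0.83 ± 0.14 (SE) was a 1.78-fold rise (adjusted p = 0.00321), with 0.93 on slide 1 and 0.74 on slide 2. Its relative Smyd3 had a mean of 0.06 ± 0.12 in controls and 0.28 ± 0.12 after furan (SD, n = 4 each). The groups did not overlap for Smyd3 either, but the log2 change of 0.21 missed the threshold (adjusted p = 0.156; 95% interval -0.03 to 0.46).

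Setd8, now named Kmt5a, adds the first methyl group to histone H4 and is needed for mitosis. Its levels were 0.32, 0.99, 1.15 and 0.97 in the controls and 1.58, 1.69, 1.16 and 1.34 after furan. The groups touched without overlapping, and the log2 change of 0.58 ± 0.20 (SE) missed the threshold (adjusted p = 0.0521). It was 0.98 on slide 1 and 0.19 on slide 2. Setd8 passed the threshold in 4 of 22 alternatives, namely normexp, the stricter filter of all 8 arrays well above background, a variance trend, and without furan 3. Setd2, which places the trimethyl mark behind elongating RNA polymerase, had a log2 change of -0.21 with an interval from -0.54 to 0.12.

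**Figure D2:**
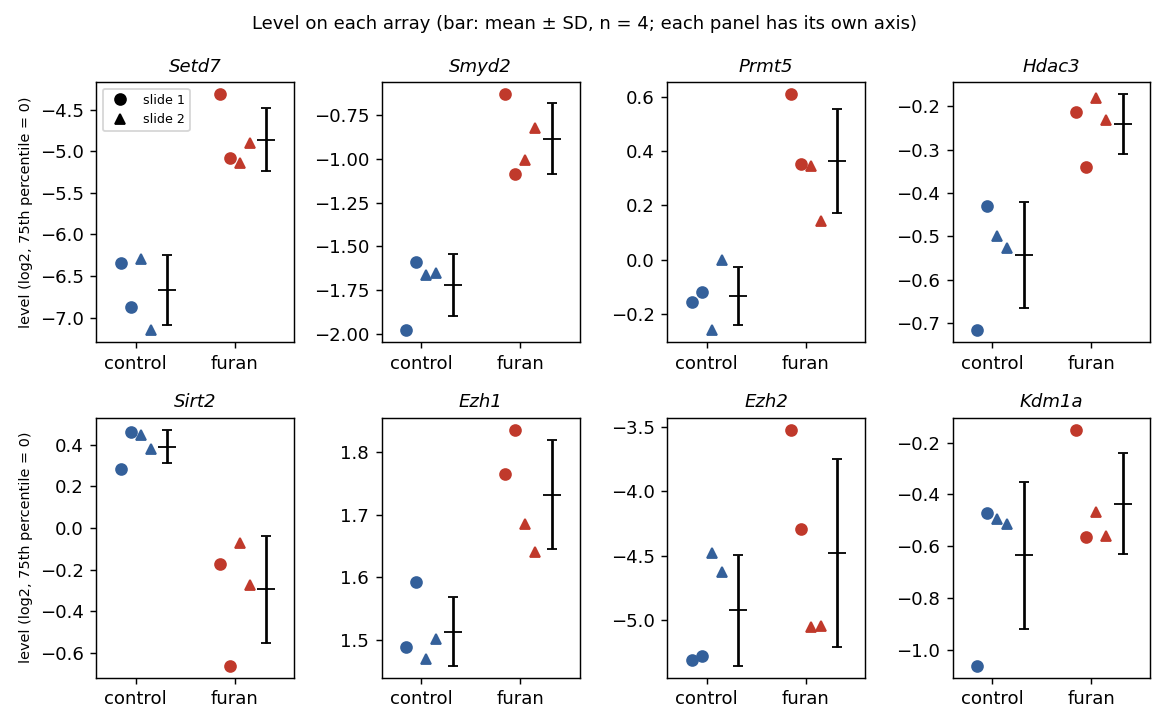
Level on each array (y axis, log2 with the 75th percentile of the array at 0) for 8 members in control and furan livers, as circles for slide 1 and triangles for slide 2, with the mean ± SD of 4 livers beside them. Furan livers stand apart from controls for Setd7, Smyd2, Prmt5, Hdac3, Sirt2 and Ezh1, and the groups overlap for Ezh2 and Kdm1a.

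The polycomb repressive complex that methylates histone H3 was represented by its alternative catalytic subunits Ezh1 and Ezh2 and by Eed, the subunit that binds the finished mark. Ezh2, the subunit of dividing cells, had levels of -5.31, -5.28, -4.48 and -4.62 in controls and -3.52, -4.29, -5.06 and -5.05 after furan. Furan livers 1 and 2 were above every control, while furan livers 3 and 4 fell within the control range. With a log2 change of 0.45 ± 0.37 (SE), Ezh2 missed the threshold (adjusted p = 0.373, 95% interval -0.39 to 1.29), and the change was 1.39 on slide 1 and -0.50 on slide 2. Ezh2 was read from a single dim spot, well above background on every array, and its wide interval leaves the size of any change unsettled. On the same arrays Mki67, a protein of dividing cells, rose by 2.47 ± 0.24 (SE, adjusted p = 0.000518).

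Ezh1, the subunit typical of resting cells, has a bright and a dim probe. On the bright probe its levels were 1.49, 1.59, 1.47 and 1.501 in controls and 1.77, 1.84, 1.68 and 1.64 after furan. All furan values were higher than all control values by a small margin, and the difference of 0.22 ± 0.09 (SE, log2) missed the threshold (adjusted p = 0.0959). On the dim probe the groups overlapped, at -5.68 ± 0.27 and -5.54 ± 0.45 (SD, n = 4 each), and the log2 change was 0.15. Eed had a log2 change of 0.16 with overlapping groups (interval from -0.17 to 0.49).

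Enzymes of heterochromatin showed no called change, beside 35.5% of all features called. The 4 methyltransferases for the repressive mark on another lysine of histone H3 were Suv39h1 (log2 change -0.07), Ehmt1 (-0.24), Ehmt2, also known as G9a (-0.23), and Setdb1 (0.17). Ehmt1 and Ehmt2 work as a pair, and 3 furan livers for Ehmt1 and 2 for Ehmt2 lay below all controls. Ehmt1 was read from 10 spots on each array, with means of -0.55 ± 0.07 in controls and -0.80 ± 0.17 after furan (SD, n = 4 each, adjusted p = 0.118). Suv39h1 was dim, with means of -5.99 ± 0.09 and -6.06 ± 0.37. Dot1l, which methylates the core of histone H3 at transcribed genes, had a log2 change of -0.16 with an interval from -0.42 to 0.10.

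Of the 4 arginine methyltransferases, Prmt5 was called. It is the main enzyme for symmetric dimethylation and also serves splicing factors. Its levels were -0.15, -0.12, -0.26 and -0.00 in controls and 0.61, 0.35, 0.34 and 0.14 after furan. Every furan liver exceeded every control, and furan 1 was the highest. The log2 change of 0.50 ± 0.12 (SE) was a 1.41-fold rise (adjusted p = 0.0151), with 0.62 on slide 1 and 0.38 on slide 2. Prmt5 was no longer called in 5 of 22 alternatives, among them each slide alone and scaling by the array median (adjusted p = 0.0519). The other 3 had changes of the same sign that were not called: Prmt1, the main asymmetric enzyme, with 0.21 (adjusted p = 0.184), Prmt6 with 0.26 (0.111) and the coactivator Carm1 with 0.28 (0.129). Over all 17 tested methyltransferases the median log2 change was 0.21, with 12 above 0 and 5 below. Of these 17, 3 were called (17.6%, against 35.5% of all features).

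None of the 6 demethylases was called, and 1 had an unadjusted p below 0.05 in limma. Of all features 35.5% were called, and 6 genes are too few to compare with that share. Kdm1a, which removes methyl groups from histone H3 with a flavin cofactor, had levels of -1.06, -0.47, -0.49 and -0.51 in controls and -0.15, -0.56, -0.47 and -0.56 after furan. The groups overlapped, control 1 was far below the other controls, and the log2 change of 0.20 had an interval from -0.18 to 0.58. Among the Jumonji enzymes the largest differences were those of Kdm3a and Kdm6b. Kdm6b, the demethylase of the polycomb mark, was read from 10 spots, with levels of -1.13, -1.61, -1.66 and -2.12 in controls and -2.11, -2.08, -2.02 and -2.26 after furan. The furan livers were close together and control 4 lay among them, and the difference of -0.49 ± 0.19 (SE, log2) missed the threshold (adjusted p = 0.0809). It passed without control 4.

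Kdm3a, which acts on the heterochromatin mark and responds to hypoxia, had levels of -2.03, -2.72, -1.84 and -1.77 in controls and -2.22, -2.77, -2.66 and -2.69 after furan. Kdm3a was read from a single spot on each array. Control 2 lay with the furan livers and furan 1 near the controls. The difference of -0.49 ± 0.23 (SE, log2) missed the threshold (adjusted p = 0.120), with -0.12 on slide 1 and -0.87 on slide 2, and it was called on slide 2 alone and without control 2. The others had log2 changes of -0.13 for Kdm2a, 0.20 for Kdm4a and -0.15 for Kdm5b. The median over the 6 demethylases was -0.14.

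The 4 tested acetyltransferases stayed within a narrow range, none called and none with an unadjusted p below 0.05 in limma. Against the 35.5% of all features called, 4 genes are too few for a comparison. The coactivators Ep300 and Crebbp, which acetylate histones at enhancers, had log2 changes of -0.08 (interval from -0.36 to 0.21) and -0.17 (from -0.68 to 0.34), and the Crebbp probe was dim and well above background on 3 of 4 furan arrays. Kat2a, the catalytic subunit of the SAGA complex, had a change of 0.16 and Kat5, also known as Tip60, of -0.06. Their median was -0.07. Kat2b, the relative of Kat2a, is present on the array under its former name Pcaf, outside the naming rule. Its brighter probe had means of 1.85 ± 0.25 in controls and 1.32 ± 0.40 after furan (SD, n = 4 each), with a log2 change of -0.52 (adjusted p = 0.0900 over all tested probes). The other probe fell by 0.45 on the log2 scale (adjusted p = 0.0190 in the same fit), so the call for this gene depends on the probe.

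Classical deacetylases showed 1 called change, beside 35.5% of all features called. Hdac3, the catalytic subunit of the nuclear receptor corepressor complex, had levels of -0.72, -0.43, -0.50 and -0.53 in controls and -0.21, -0.34, -0.18 and -0.23 after furan. The furan livers stood above the controls, of which control 1 was the lowest. The log2 change of 0.30 ± 0.10 (SE) was a 1.23-fold rise just past the threshold (adjusted p = 0.0465), with 0.30 on slide 1 and 0.31 on slide 2. It kept its sign in all 22 alternatives and its call in 7 of them, and leaving out any 1 of the 8 livers ended the call, as did fitting the slide as a block (adjusted p = 0.0579; the alternatives gave an adjusted p of 0.0258 to 0.357).

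Hdac1, a partner of Hdac2 in repressor complexes, had means of 0.70 ± 0.11 in controls and 0.98 ± 0.12 after furan (SD, n = 4 each). Its groups did not overlap, and the log2 change of 0.28 was not called (adjusted p = 0.0731). Its other probes changed by 0.01 and 0.12, with overlapping groups. Hdac11, the lone enzyme of its class, had levels of 0.89, 1.04, 0.71 and 0.65 in controls and 0.52, 1.19, 1.33 and 1.58 after furan. Furan 1 was below all controls and the other 3 above them, and with all livers the log2 change of 0.33 was not called (adjusted p = 0.274). It was called without furan 1 and on slide 2 alone. Hdac5 (-0.03) and Hdac8 (-0.13) differed little, with intervals from -0.33 to 0.27 and from -0.40 to 0.15.

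Of 5 tested sirtuins 1 was called, beside 35.5% of all features. Sirt2, the mainly cytoplasmic sirtuin that deacetylates tubulin and histone H4, had levels of 0.28, 0.46, 0.44 and 0.38 in controls and -0.17, -0.66, -0.07 and -0.27 after furan. Every furan liver was below every control, with furan 2 the lowest. The log2 change of -0.68 ± 0.14 (SE) corresponds to a 1.61-fold fall (adjusted p = 0.00697), with -0.79 on slide 1 and -0.58 on slide 2. Sirt1, the nuclear sirtuin, was read from a single dim spot with levels from -6.28 to -4.25 in controls and from -6.35 to -5.07 after furan. Its log2 change of -0.41 had an interval from -1.44 to 0.61, too wide to exclude a 2-fold fall.

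The mitochondrial sirtuins Sirt3, a deacetylase, and Sirt5, which removes succinyl and malonyl groups, had log2 changes of -0.00 (interval from -0.39 to 0.38) and -0.27 (from -0.65 to 0.11). Sirt6, a chromatin sirtuin of sugar and lipid metabolism, had a change of 0.27 (adjusted p = 0.156). Over the 10 tested deacetylases the median was -0.02. Among all 32 members not called, the 95% interval lay within 1 log2 unit either way for 28 and within 0.5 for 15, so for the latter changes of that size were outside the interval. The exceptions to the first count were Setd8, Ezh2, Kdm3a and Sirt1.

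**Figure D3:**
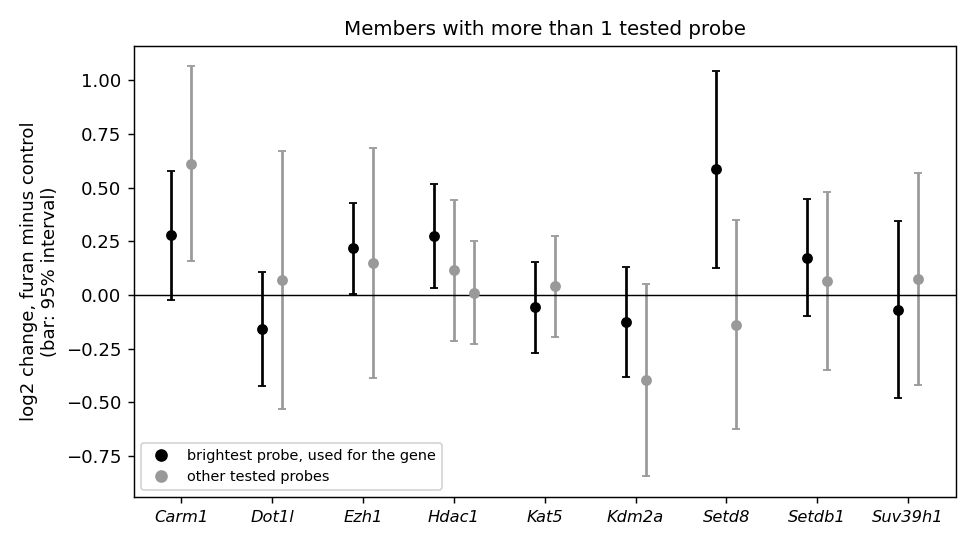
Log2 change (y axis, furan minus control, n = 4 each) with 95% interval for each tested probe of the 9 members that have more than 1, the brightest probe in black and the others in grey. Setd8 has 1 probe above 0 and 1 below, and the Carm1 probes are both above 0.

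Probes of the same gene did not always move together. Of 9 members with more than 1 tested probe, 5 had probes of one sign and 4 had probes of both signs. For Setd8 the change was 0.58 in the brighter probe against -0.14 in the dimmer one, so its difference rests on the brighter probe. Carm1 had 0.28 in the brighter probe and 0.61 in the dimmer one, and the latter was called in a fit of all probes (adjusted p = 0.0431). For Dot1l, Kat5 and Suv39h1 the probes of opposite sign were all within 0.16 of 0. Between slides, 27 of the 37 members had the same sign, among them all 5 called ones, and 10 had opposite signs. The groups of the 5 called members did not overlap, which fixes the same sign on both slides, so this adds nothing to their calls. No share of all features is given beside these counts.

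The members did not stand at one end of the signal scale. With all features divided into 4 equal bins by mean level, 7, 9, 14 and 7 members fell into the bins from lowest to highest. Called features made up 27.5%, 34.5%, 36.8% and 43.4% of these bins, and called members numbered 1, 0, 4 and 0. In the RefSeq table of promoters (build GRCr8, 250 bases before to 50 after the start) 36 of the 42 members had an entry. Their median GC content was 63.0%, against 51.7% over all 33469 promoters.

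Promoters were searched for 2 motifs known from cell cycle genes on both strands, an E2F-type site and the CHR element. The E2F letters were TTCCCGC, with TTGGCGC as the second form and TTCGCGC as the third. The CHR letters were TTTGAA, with TTCGAA as the other form, and no E2F form contains a CHR form. The E2F letters occurred in 5 of 36 member promoters (13.9%), those of Suz12, Ezh2, Carm1, Kdm1a and Sirt2, against 7.52% of all promoters. Among members called higher 0 of 3 with an entry held it, among those called lower 1 of 1, and among those tested and not called 3 of 27. The CHR letters occurred in 2 of 36 (5.56%), Suz12 and Hdac8, against 19.7% of all. Base composition differs between the members and all promoters, and the shares were not tested. Stretches from 200 bases before to 50 after the start are shown for Ezh2 and Sirt2, which hold the E2F letters, and for Smyd2, which rose and holds neither motif. Capitals mark the match, which begins at position 11 after the start in Ezh2 and at position -99 in Sirt2.
Ezh2 promoter, chr4:77687134-77687383 (- strand): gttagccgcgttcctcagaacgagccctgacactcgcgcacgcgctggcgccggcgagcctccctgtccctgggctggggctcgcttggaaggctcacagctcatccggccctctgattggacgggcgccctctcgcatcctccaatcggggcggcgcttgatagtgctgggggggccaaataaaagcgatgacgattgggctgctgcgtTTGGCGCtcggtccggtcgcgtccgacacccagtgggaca
Sirt2 promoter, chr1:93181272-93181521 (+ strand): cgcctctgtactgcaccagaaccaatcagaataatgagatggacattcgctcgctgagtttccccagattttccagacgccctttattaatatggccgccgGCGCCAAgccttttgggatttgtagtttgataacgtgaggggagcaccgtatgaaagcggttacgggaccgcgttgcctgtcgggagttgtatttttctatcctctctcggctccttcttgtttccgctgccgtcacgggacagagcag
Smyd2 promoter, chr13:103997725-103997974 (- strand): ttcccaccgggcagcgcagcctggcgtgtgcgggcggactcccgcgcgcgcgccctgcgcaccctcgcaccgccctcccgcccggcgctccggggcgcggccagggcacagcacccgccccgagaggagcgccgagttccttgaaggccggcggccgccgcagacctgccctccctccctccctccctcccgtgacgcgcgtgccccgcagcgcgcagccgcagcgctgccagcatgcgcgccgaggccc

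Other genes of the same machinery were read from 7 further lists. Of 20 other methyltransferases 7 were called higher and 5 lower (60.0%, against 35.5% of all features), with a median log2 change of -0.06. Prmt2, an arginine methyltransferase and coactivator, rose from -3.03 ± 0.28 to -1.33 ± 0.40 (SD, n = 4 each, log2 change 1.70, adjusted p = 0.00139), and its furan livers lay above all controls. Nsd3 rose by 0.89 and Smyd5 by 0.83, while the large trithorax enzyme Kmt2a fell by 0.69 (adjusted p = 0.0272), Prdm2 by 0.49 and Kmt2e by 0.46. Of 15 genes listed as other demethylases 2 were higher and 4 lower (40.0%, near the 35.5% of all features), with a median of -0.20. Phf8, a Jumonji enzyme of active promoters, fell by 0.87 (adjusted p = 0.00250) and its relative Phf2 by 0.60. Hspbap1, from the same list, rose by 0.63. A place on this list does not show that a gene product is a histone demethylase, and activity was not measured. Of 11 other acetyltransferases 1 was lower (9.09%, against 35.5% of all features), Taf1 with a fall of 0.65. Of 4 other deacetylases, too few to compare with that share, none was called, nor did any have an unadjusted p below 0.05.

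Of 49 tested partners of the enzymes 6 were called higher and 5 lower (22.4%, against 35.5% of all features), with a median of -0.16. Rbbp7, the histone-binding subunit shared by polycomb and deacetylase complexes, had means of 2.12 ± 0.18 in controls and 3.35 ± 0.33 after furan (SD, n = 4 each) and rose by 1.23 ± 0.18 on the log2 scale (SE, adjusted p = 0.00191). Dpy30, a subunit of the trithorax-type complexes, rose by 0.62 and Trrap, a scaffold of acetyltransferase complexes, by 0.54, while Phf1, a polycomb accessory protein, fell by 0.71. Among 31 proteins that bind histone marks, 3 were called higher and 4 lower (22.6%, against the same 35.5%). The chromobox proteins divided, with Cbx6 and Cbx3 up by 0.60 and 0.52 and Cbx7 and Cbx8 down by 0.56 and 0.46, called in each case.

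Enzymes that supply or consume the cofactors showed 5 falls and no rise among 18 tested, with a median of -0.19. These calls were 27.8% of the list, against 35.5% of all features called in either direction and 17.5% called lower. Nampt, the rate-limiting enzyme of NAD salvage on which sirtuins depend, had means of 1.04 ± 0.50 in controls and -0.09 ± 0.24 after furan (SD, n = 4 each) and fell by 1.13 (adjusted p = 0.00889). Gnmt and Nnmt, which use up S-adenosylmethionine, fell by 1.11 and 1.28 (adjusted p = 0.00465 and 0.00741). In each of these 3 genes all furan livers lay below all controls. Over the list the groups did not overlap for 7 of 18 genes (38.9%), against 37.5% of all features. Mat1a, which makes S-adenosylmethionine in hepatocytes, had a log2 change of -0.63 that was not called (adjusted p = 0.0594). Its furan livers also lay below all controls. Acly, a source of acetyl-CoA, had a change of -0.19 and was not called.

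**Figure D4:**
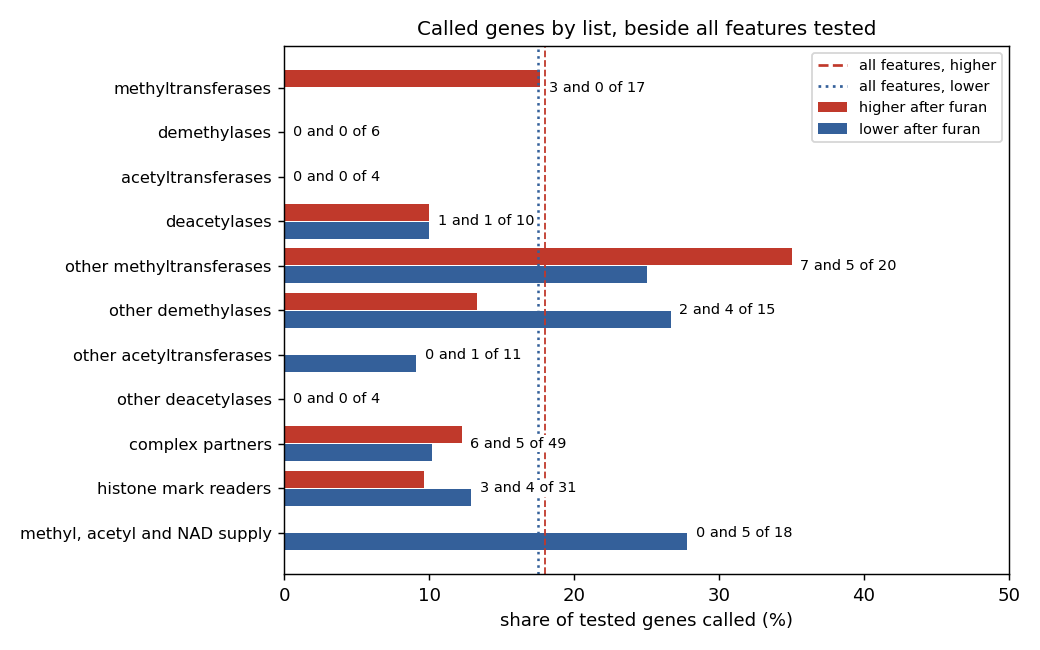
Share of the tested genes of each list called higher (red) or lower (blue) after furan (x axis, percent), with counts printed as higher and lower of tested, and dashed and dotted lines at 18.0% and 17.5% for all features. The methyltransferases described here reach 3 of 17 higher and the other methyltransferases 7 of 20 higher and 5 of 20 lower.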

How the data were processed

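Liver RNA of 8 rats was labelled with Cy3 and read on 1-colour Agilent arrays. Per the file headers and the submitters' processing notes, the authors extracted spots with Agilent Feature Extraction 10.7, and the deposited files give a background-subtracted, detrended signal in intensity units. The deposited series table holds intensities equal to this signal multiplied by 1 factor per array.

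Non-uniform and outlier spots were left out, log2 signals averaged per probe (30367 probes, 170 without a usable spot on every array removed) and the log2 75th percentile of non-control spots subtracted. A probe counts as well above background where over 50% of its usable spots are marked so. It was tested if this held on all 4 arrays of a group, and the brightest probe stood for a gene, named through RefSeq (GRCr8) accession, symbol or synonym, else as in the file. The fit used limma 3.58.1 in R 4.3.3 (no trend, two-sided). It was run on simulated data with independent normal noise and no slide effect, which cannot show how it handles such effects. The members and lists were chosen with earlier results of these data known. Full values were given for called members with a change of at least 0.5, for Ezh1, Ezh2, Setd7 and Kdm1a, and for some members near a threshold, chosen after their values were seen. From other lists, up to 3 called rises and 3 called falls could be named. Mat1a, Acly and Mki67 were added. The number of arrays limits the precision. In all, 22 alternatives were run.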

Additional observations from a re-analysis of the deposited data

Results flagged for a closer look

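In 3 of 82 groups of 4 livers 1 liver stood apart from the other 3 by Dixon's criterion, and chance marks about 1 group in 20. The demethylase Kdm1a had a level of -1.06 in control 1, below the -0.51 to -0.47 of the other controls. Sirt1, read from 1 dim spot, was at -6.35 in furan 1, against -5.25 to -5.07 in the other furan livers. The median level of the 6 demethylases was -1.36 in control 4, against -1.14 to -1.10 in the other controls.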

How the results depend on the processing

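Over the 22 alternatives no member was called in opposite directions. Smyd2 was called in 21, Sirt2 in 20, Prmt5 in 17 and Hdac3 in 7 of 22. All alternatives reused the same 8 arrays, so these numbers show dependence on processing and are not repeated evidence for a call. The deposited table, 1 of the alternatives, is the same signal multiplied by 1 factor per array and so repeats the main setting. Setd7 was called in 19 of 21. Its dim probe failed the stricter filter of the remaining alternative, which required every array well above background. The others reused this single probe and, except for normexp, the same background-subtracted signal, so their number adds no independent evidence for the Setd7 call. The 4 members called higher became 2 with each array's median in place of its 75th percentile, 2 with the replicate block and 0 on slide 1 alone, where 2 livers meet 2. They became 6 with a variance trend, 5 with normexp, 5 with the mean of a gene's probes and 3 with the slide as a block; without 1 liver they numbered 3 to 4. The 1 called lower became 5 with normexp background correction, 0 on slide 1 alone, and 2 with control 2 and furan 1 both left out; without 1 liver, 1 to 2. Slide 1 alone called 4.53% of all features. Normexp moved the median of all features from -0.03 to -0.16 and the share of called features that were higher from 50.6% to 33.5%, and called Kdm6b (-0.48), Crebbp (-0.52), Sirt1 (-0.52) and Suv39h1 (-0.40) lower beside Sirt2; the cause was not tested. With the median of each array 22.6% of all features were called, and Prmt5 and Hdac3 were not (adjusted p = 0.0519 and 0.225). The acetyltransferase median became 0.029 on slide 2 alone and 0.026 with control 2 and furan 1 left out, and without 1 liver ran from -0.10 to 0.01. For deacetylases slide 1 gave a median of -0.17, slide 2 gave 0.12, and leaving out 1 liver gave -0.07 to 0.08. The methyltransferase median of 0.21 was 0.34 on slide 1, 0.10 on slide 2 and 0.10 with normexp. Medians without 1 liver were 0.17 to 0.25 for methyltransferases and -0.22 to -0.04 for demethylases. The labels name no animal, litter or day shared by livers of the same replicate number. Deviations of such livers correlated at -0.30, 0.13, 0.26 and 0.03 across features, which cannot settle whether the numbers pair animals. For mean deviations of control and furan livers on the same slide the correlation was 0.20. With the replicate block Prmt5 (adjusted p = 0.0520) and Hdac3 (0.113) were not called.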
